A study of Mus musculus with 9 samples.

Results

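The genes described here are 10 genes of the Lin28-let-7 axis and of the fetal RNA-binding programme: Lin28a, Lin28b, Trim71, Igf2bp1, Igf2bp2, Igf2bp3, Hmga1, Hmga2, Arid3a and Arid3b. They were picked by name, with earlier results of these data known. All 10 were found by Ensembl identifier among the 47643 genes counted in each library. Their read counts were compared between Tm+Yap− and GFP+Yap+ tumor cells of mouse pancreatic ductal adenocarcinoma (PDAC), to ask which of them differ in cells that grow without Yap, the transcriptional coactivator of the Hippo pathway.

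All mice carried Trp53frt/+, Pdx-Flp and R26FSF-CreER/Dual, so that Flp driven by the Pdx1 promoter removed the FRT-flanked Trp53 allele in the pancreas. KPF mice had no floxed Yap allele and gave 6 libraries of GFP+Yap+ cells, and KPYYF mice also carried Yap flox/flox and gave 3 libraries of Tm+Yap− cells. All mice were given a tamoxifen (TAM) diet, which activates CreER, turns the reporter from EGFP to tdTomato (Tm) and, in KPYYF mice alone, deletes Yap. Cells were sorted by reporter from relapsed nodules, and 3′ end libraries were made from their RNA. Genotype, Yap status and reporter color change together between the groups and cannot be told apart. The labels give mouse numbers and no ages, and KPF libraries 4504h and 4504s share a number, so the replicates are treated here as separate samples and also with these libraries summed.

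LIN28A and LIN28B are RNA-binding proteins of embryonic and fetal cells that bind the precursor of the microRNA let-7 and block its maturation. Mature let-7 pairs through its seed, the stretch of bases near its 5′ end, with sites in the 3′ untranslated region (3′UTR) of target messenger RNAs and lowers them, and LIN28 messenger RNAs are themselves let-7 targets. TRIM71 is a stem cell protein that represses bound messenger RNAs, the IGF2BP proteins bind and stabilize fetal messenger RNAs such as that of Igf2, HMGA proteins bend AT-rich DNA in chromatin, and ARID3 proteins bind AT-rich DNA. Most of the 10 genes are known let-7 targets, and LIN28B, IGF2BP1, IGF2BP3 and HMGA2 are low in most adult tissues and return in many carcinomas.

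Mature let-7 is too short for 3′ end libraries of messenger RNA and was not measured, so its sequence is shown to mark what the 10 genes share. RefSeq's table (GRCm38.p6) lists 13 mouse let-7 and miR-98 loci with 11 mature names, of which 10 share the seed GAGGUAG at bases 2 to 8. These 4 were taken to show the family, with the seed in capitals, and let-7j is the one whose seed differs.
let-7a: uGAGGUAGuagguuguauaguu
let-7g: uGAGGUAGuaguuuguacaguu
miR-98: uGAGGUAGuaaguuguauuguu
let-7j: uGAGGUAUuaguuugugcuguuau

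The letters CTACCTC, which pair with bases 2 to 8 of the shared seed, were searched on the sense strand of the longest annotated 3′UTR of each gene (GENCODE M21, GRCm38), and CTACCTCA is the same match with an A after it. All 10 genes held at least 1 match of 7 bases, against 8.97% of 20914 protein-coding genes with a 3′UTR, and Lin28b, Trim71, Igf2bp1 and Hmga2 held 4 each. Among genes with a 3′UTR within 20% of the same length, as many matches were found in 0.238% for Lin28b, 0.508% for Trim71, 0.357% for Igf2bp1 and 0.135% for Hmga2. The single match in each of Igf2bp2, Igf2bp3, Hmga1 and Arid3b was far more common, in 7.97 to 13.4% of genes of like length. Many of the genes are known as let-7 targets through such sites, so their matches describe the choice of genes and are no independent result. One site is shown for each of the 6 genes on which the comparison turned, as the sense strand with the match in capitals and the distance of its first base from the stop codon.
Lin28b, chr10:45381022-45381044, minus strand, 36 bases after the stop codon: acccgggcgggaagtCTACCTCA
Trim71, chr9:114512472-114512494, minus strand, 166 bases after the stop codon: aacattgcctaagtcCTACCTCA
Igf2bp2, chr16:22059473-22059495, minus strand, 1313 bases after the stop codon: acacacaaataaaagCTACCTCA
Hmga2, chr10:120364224-120364246, minus strand, 58 bases after the stop codon: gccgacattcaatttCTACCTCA
Hmga1, chr17:27563277-27563299, plus strand, 801 bases after the stop codon: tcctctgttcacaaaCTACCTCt
Arid3b, chr9:57790361-57790383, minus strand, 2148 bases after the stop codon: tatttcaataaagctCTACCTCt

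Libraries held 8116539 to 9635514 reads on genes, and values are given as CPM, counts scaled to library size, after TMM normalization, where a count of 3 was 0.292 to 0.437 CPM. Yap1, the deleted gene, had 41.8 to 151 CPM in KPF libraries and 0.712, 2.84 and 7.12 CPM in KPYYF libraries, so that the log2 fold change was -4.79 with a standard error (SE) of 0.72. Its adjusted p, by the quasi-likelihood test of edgeR and Benjamini-Hochberg over 14105 genes, was 0.0159, and its direction fitted the labels. Reads of Xist, the RNA of the inactive X chromosome, numbered 3452 to 16108 in all KPYYF libraries and 5878 to 10933 in KPF 4435, 4504h and 4504s and 71 to 159 in KPF 4269, 4515 and 4601, so the sexes were not balanced. The 8 epithelial markers checked (keratins, Epcam, Cdh1 and others) were all detected but lower in KPYYF libraries, with a summed level of 570 to 1828 CPM against 3238 to 11687 CPM in KPF libraries. Acinar markers were high in KPF library 4504s and KPYYF library 4449 (19067 and 5207 CPM, against 64.1 to 953 CPM in the other 7), immune markers in KPF library 4601 (7488 CPM, against 343 to 1277 CPM), and Schwann cell markers were higher in KPF (18.1 to 97.0 CPM) than in KPYYF libraries (0.547 to 7.36 CPM), with Sox10 at 0 in all, as was the acinar marker Amy2a5. Fibroblast markers overlapped between the groups (421 to 5641 CPM in KPF and 1128 to 3193 CPM in KPYYF libraries), and endothelial and islet markers reached at most 66.4 and 58.7 CPM. The part of these differences in the results below was not tested.

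Of the 10 genes, 9 had a sum of at least 100 reads and were tested, and 7 of these had a higher and 2 a lower mean in KPYYF cells. In edgeR's test none had an adjusted p under 0.05 (the lowest was 0.0514, of Lin28b), where 0.305% of all genes tested were called higher and 0.794% lower, and 6 of the 9 had an unadjusted p under 0.05, against 16.1% of all genes tested. With the DESeq2 Wald test, 1 of the 9, Lin28b, had an adjusted p under 0.05, against 1.96% of the genes with an adjusted p called higher, and none was lower, against 6.75%. The study's methods used DESeq2 with a cutoff on p and on fold and do not say whether p was adjusted. By the rule made from it here, an unadjusted p under 0.05 in edgeR's test together with a fold above 2, 5 genes were higher (Lin28b, Trim71, Igf2bp2, Hmga1 and Hmga2), against 4.2% of all genes tested, and 1 was lower (Arid3b), against 9.2%. In 2 of the 9 all KPYYF libraries lay above all KPF libraries, against 3.92% of all genes tested, and in 1 all lay below, against 5.18%. The median log2 fold change of the 9 was 1.08, beside -0.07 over all genes tested. Because the 10 genes were chosen with earlier results of these data known, these counts and medians describe the choice and cannot show an enrichment. Lin28b and Trim71, with 1 and 37 KPF reads, passed the filter on low counts through the KPYYF libraries alone, so that their place among the 9 follows from their being higher there, and the counts and the median describe the 9 without support from these 2. Arid3b, with 84 KPYYF reads, passed the filter of 100 reads through the KPF libraries. Its place as the gene called lower and lying below all KPF libraries is likewise only described. These are sorted populations measured in bulk, in which fewer cells expressing a gene and less of its RNA per cell cannot be told apart.

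**Figure D1:**
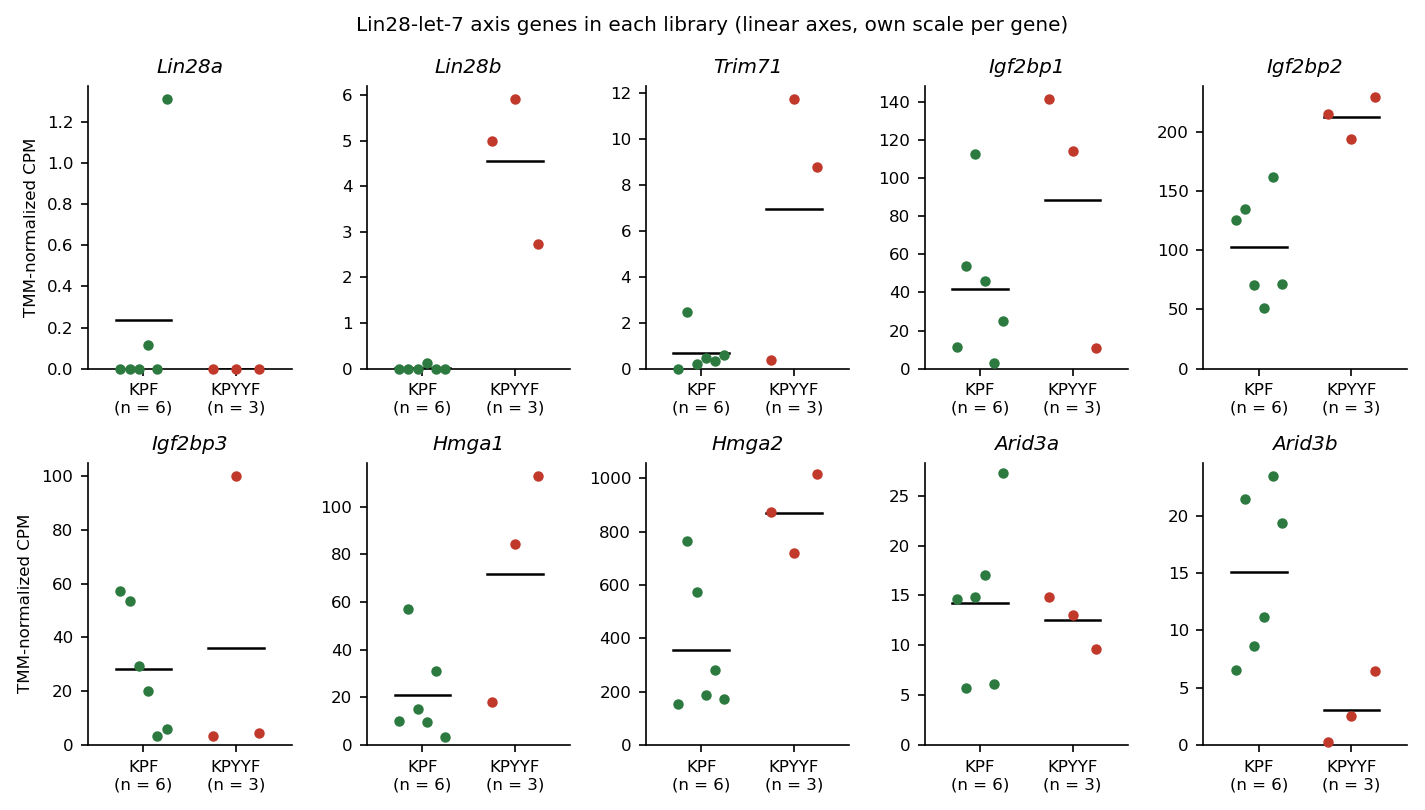
Level of each of the 10 genes in TMM-normalized CPM (vertical axis, linear, from 0, with its own scale for each gene) in the 6 KPF libraries (green) and the 3 KPYYF libraries (red). Each point is 1 library and each line a group mean. The KPYYF points lie above all KPF points for Lin28b and Igf2bp2, below them for Arid3b, and overlap them for the other tested genes.

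Lin28b (ENSMUSG00000063804, GRCm38 chr10:45376620-45486395, minus strand) was the gene that separated the groups most plainly. It had 42, 54 and 25 reads in the KPYYF libraries 4449, 4891 and 4938, or 4.99, 5.90 and 2.74 CPM, and 1 read in all 6 KPF libraries together, in 4504s. Every KPYYF library stood above the floor of 3 reads and every KPF library below it. Pooled over the libraries, this was 4.53 against 0.0183 CPM, a ratio of 247 with a wide 95% interval of 43.5 to 9839 (exact Clopper-Pearson interval on the counts, which covers counting error only). Reads in each group were few, so the size of the ratio is loosely known. The exact two-sided permutation test of log2 CPM gave p = 0.0119, the smallest that the 84 splits of 9 libraries allow. In edgeR's fit its adjusted p was 0.0514, and this was 0.0029 with DESeq2, 0.0482 with filterByExpr and up to 0.255 under the other alternatives, with a higher value in KPYYF in all 19. Among the genes tested, 13 had at most 1 read in the KPF libraries. Such genes, Lin28b included, could pass the filter on low counts only through the KPYYF libraries, so its p-values describe it without adding support. No annotated exon of another gene overlaps its exons.

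Lin28a (ENSMUSG00000050966, chr4:134003330-134018841), its paralog and the founding inhibitor of let-7 in pluripotent cells, was all but silent. It had 10 reads, 9 of them in KPF library 4601, at 1.31 CPM, and 1 in KPF library 4504s. The other 7 libraries, all 3 KPYYF libraries included, had none, where 3 reads would have been 0.112 CPM over the KPYYF group. It fell short of the filter and was not tested, and KPF library 4601 is also the one with the high immune marker level. The 2 Lin28 genes were thus not seen together in these libraries, apart from 1 read of each in KPF library 4504s.

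Trim71 (ENSMUSG00000079259, chr9:114507133-114564369), a repressor of differentiation messenger RNAs and a classic let-7 target, was high in KPYYF libraries 4891 and 4938, with 107 and 80 reads, and not in 4449, with 3 reads. The levels were 11.7, 8.77 and 0.356 CPM. The KPF libraries had 0 to 24 reads, with a lowest of 0, a median of 0.394 and a highest of 2.46 CPM, the last in library 4435. The groups therefore overlapped, since KPYYF library 4449 lay below the KPF median. The log2 fold change was 3.34 (SE 1.45), with an unadjusted p of 0.0386 and an adjusted p of 0.273 in edgeR's test. Trim71, like Lin28b, passed the filter on low counts through the KPYYF libraries alone, so its p-values describe it without adding support. The exact permutation test gave p = 0.0476, and 0.0833 with a prior count of 0.5 in place of 2 in the log2 CPM. Trim71 no longer passed the rule in 6 of the 9 fits that left out 1 library (without KPF 4504h, 4504s, 4515 or 4601, or KPYYF 4891 or 4938), with log2 fold changes of 2.74 to 4.42 over the 9. An exon of C130032M10Rik lies on the opposite strand, and the strand setting of the count is not given in the sources used here.

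Igf2bp2 (ENSMUSG00000033581, chr16:22059009-22163299) was the steadiest of the 3 genes for IGF2 messenger RNA-binding proteins, and the one known to persist in adult tissues. KPYYF libraries 4449, 4891 and 4938 had 216, 194 and 230 CPM, and the KPF libraries had a lowest of 50.9, a median of 98.7 and a highest of 162 CPM. All KPYYF libraries lay above all KPF libraries. The means were 213 ± 18.0 CPM (SD, n = 3) and 103 ± 44.2 CPM (SD, n = 6). The log2 fold change of 1.05 (SE 0.35) had an unadjusted p of 0.00987 and an adjusted p of 0.159 in edgeR's test, and the exact permutation test gave p = 0.0238. The change was close to 2-fold, so that it dropped just under that limit in 4 of the 9 fits that left out 1 library (without KPF 4504h, 4504s or 4601, or KPYYF 4938), while the log2 fold change stayed between 0.94 and 1.39 under the 19 alternatives.

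Igf2bp1 (ENSMUSG00000013415, chr11:95957163-96005940), the most strictly fetal of the family, varied within both groups. KPYYF libraries 4449 and 4891 had 142 and 114 CPM and 4938 had 10.6 CPM. In KPF it ran from 2.66 CPM in library 4515, with a median of 35.4 CPM, to 113 CPM in library 4504h. The groups overlapped over nearly their whole range. Its log2 fold change was 1.08 (SE 0.97, unadjusted p = 0.293 and adjusted p = 0.654 by edgeR's test), and the exact permutation test gave p = 0.417. Its exons overlap those of Mir3063 on the same strand and Gm29202 on the opposite one.

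Igf2bp3 (ENSMUSG00000029814, chr6:49085223-49214957), an oncofetal protein of many carcinomas, was high in 1 KPYYF library. Library 4891 had 100 CPM, and 4449 and 4938 had 3.44 and 4.49 CPM. The KPF libraries ran from 3.32 CPM, with a median of 24.7 CPM, to 57.1 CPM. KPYYF library 4891 was thus the highest of the 9 and the other KPYYF libraries lay at the low end of the KPF range. The log2 fold change was 0.35 (SE 1.12, unadjusted p = 0.762 and adjusted p = 0.925 by edgeR's test). Without KPYYF library 4891 it was -2.83, with an unadjusted p of 0.0240 and an adjusted p of 0.283, so that library decided the direction. Malsu1 has an exon on the opposite strand.

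Hmga2 (ENSMUSG00000056758, chr10:120361275-120476469), the chromatin protein whose messenger RNA is the best known let-7 target, had the highest read counts of the 10 genes and so the least counting error. KPYYF libraries 4449, 4891 and 4938 had 872, 718 and 1016 CPM from 7341, 6569 and 9267 reads. The KPF libraries had a lowest of 156, a median of 234 and a highest of 764 CPM, and 4435 and 4504h, at 764 and 573 CPM, stood apart from the other 4, which lay between 156 and 280 CPM. Library 4435 reached above the lowest KPYYF library, so the groups overlapped in 1 library. The log2 fold change was 1.29 (SE 0.48), with an unadjusted p of 0.0199 and an adjusted p of 0.209 in edgeR's test, and the exact permutation test gave p = 0.0595. Hmga2 still passed the rule in 8 of the 9 fits that each left out 1 library, and not without KPYYF library 4938 (log2 fold change 1.16, unadjusted p = 0.0648). In the libraries with at least 1000 Xist reads, 3 of each group, the log2 fold change was 0.80 with an unadjusted p of 0.104. 1700006J14Rik has an exon on the opposite strand.

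Hmga1 (ENSMUSG00000046711, chr17:27556497-27563674), its relative in proliferating cells, was counted beside a near copy, Hmga1b, which holds 88.9% of all 50-base stretches of the last 500 bases of Hmga1, so that reads of the pair may have been split or dropped and its value is uncertain. Hmga1 had 17.9, 84.3 and 113 CPM in KPYYF libraries 4449, 4891 and 4938, and 3.50 to 57.0 CPM with a median of 12.6 CPM in KPF libraries. The log2 fold change was 1.77 (SE 0.76, unadjusted p = 0.0388 and adjusted p = 0.273 by edgeR's test), and the exact permutation test gave p = 0.107. Hmga1b had 29.9, 0.109 and 1.43 CPM in the same KPYYF libraries, against 2.19 to 19.5 CPM in KPF. It was thus highest in 4449, the KPYYF library with the lowest Hmga1, and low in the others. Its log2 fold change was 0.16 (unadjusted p = 0.891 by edgeR's test). The sum of both had 47.9, 84.4 and 114 CPM in KPYYF libraries against 5.69 to 63.6 CPM in KPF libraries, and a log2 fold change of 1.43 (unadjusted p = 0.0250 and adjusted p = 0.227 by edgeR's test), a count chosen after the data were seen. Hmga1 alone no longer passed the rule in 5 of the 9 fits that left out 1 library (without KPF 4269, 4504h or 4504s, or KPYYF 4891 or 4938), with log2 fold changes of 1.28 to 2.37. Exons of AI413582 and Gm49774 lie on the opposite strand.

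Arid3b (ENSMUSG00000004661, chr9:57790353-57836793), a DNA-binding protein and let-7 target of embryonic mesenchyme, was the one tested gene lower in KPYYF by the rule. KPYYF libraries 4449, 4891 and 4938 had 2, 23 and 59 reads, or 0.238, 2.51 and 6.47 CPM, and the KPF libraries had 6.52 to 23.5 CPM with a median of 15.3 CPM. The groups did not overlap, but the highest KPYYF value and the lowest KPF value, 6.47 and 6.52 CPM, were almost equal. The log2 fold change was -2.29 (SE 0.90), with an unadjusted p of 0.0243 and an adjusted p of 0.224 in edgeR's test. The exact permutation test gave p = 0.0119. Arid3b passed the filter on low counts through the KPF libraries alone, so its p-values describe it without adding support. It did not pass the rule without KPF library 4515 or KPYYF library 4891 (unadjusted p = 0.0536 and 0.0656). Gm17231 has an exon on the opposite strand.

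Arid3a (ENSMUSG00000019564, chr10:79927043-79955018), which binds DNA in fetal-type B cell development, gave close values in both groups. KPYYF libraries 4449, 4891 and 4938 had 14.8, 13.0 and 9.64 CPM, all within the KPF range of 5.74 to 27.3 CPM, whose median was 14.7 CPM. Its log2 fold change was -0.19 (SE 0.59, adjusted p = 0.921 by edgeR's test), and it changed sign in 2 of the 19 alternatives. The 2 Arid3 genes thus gave unlike values, but the difference between them was not tested.

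**Figure D2:**
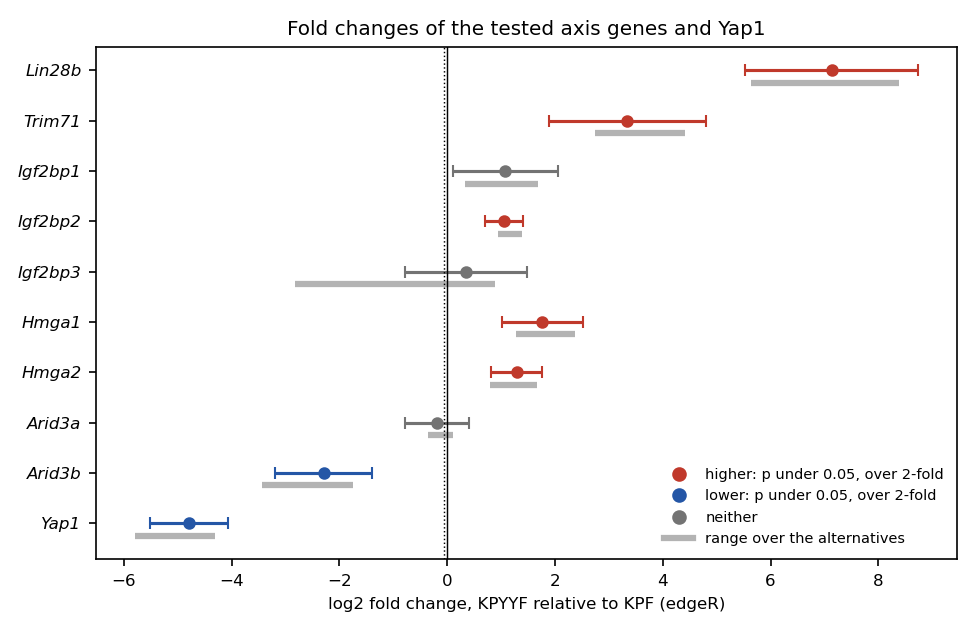
Log2 fold change of KPYYF relative to KPF (horizontal axis) for the 9 tested genes and Yap1, as points with their standard error (SE). Grey bars below each point are the range over the 19 alternative fits, the dotted line is the median of all genes tested, and color marks an unadjusted p under 0.05 with a fold above 2. Igf2bp3 and Arid3a cross 0 and the other genes keep their sign.

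The 3 KPYYF libraries did not share 1 pattern. Lin28b, Igf2bp2 and Hmga2 were high in all 3. Trim71 and Hmga1 were high in 4891 and 4938, Igf2bp1 in 4449 and 4891, and Igf2bp3 in 4891 alone, so that 4891 had the highest or the second highest value of the 9 libraries for each of these 4 genes. In KPF, library 4435 had the highest Trim71, Hmga1 and Hmga2, and KPF library 4515, with the lowest Igf2bp1 and Igf2bp3, had the highest Igf2bp2 and Arid3b.

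Libraries were also compared with those of unlike composition left out. In the 6 libraries with at least 1000 Xist reads, 2 of the 9 genes, Lin28b and Igf2bp2, passed the rule as higher, against 3.77% of all genes tested, and none as lower, against 6.91% (at an unadjusted p under 0.05, these 2 alone). With KPF libraries 4504h and 4504s summed, the 2 that passed as higher, against 4.22% of all genes tested, were Lin28b and Hmga2, with Igf2bp2 just under 2-fold, and Arid3b passed as lower, against 9.05%. Without KPF library 4504s and KPYYF library 4449, the libraries of high acinar markers, 3 passed as higher (Lin28b, Trim71 and Hmga1), against 4.43% of all genes tested, and none as lower, against 9.09%, a choice made after the data were seen. Lin28b passed in each of these and in every one of the 19 alternatives. It passed the filter on low counts through the KPYYF libraries alone, so this describes its counts and is no independent support.

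The genes whose levels followed those of Lin28b and Hmga2 most closely were sought among 8869 genes of at least 10 CPM on average. For Lin28b these were Nrm, a protein of the nuclear envelope (Pearson r = 0.99), Ror2, a Wnt5a receptor (r = 0.96), and Cdt1, a licensing factor of DNA replication (r = 0.95), over 9 libraries. All of them were higher in every KPYYF than in any KPF library, as with Nrm at 30.2, 32.3 and 20.7 CPM against 6.32 to 9.45 CPM. Since Lin28b had 1 KPF read, this likeness is mostly that of the groups. For Hmga2 they were Fam104a (r = 0.97), Cenpa, the histone variant of centromeres (r = 0.95), and Ppp2r1b, a scaffold subunit of phosphatase 2A (r = 0.94). These also followed Hmga2 within the 6 KPF libraries, with r of 0.95, 0.94 and 0.89, where Cenpa ran from 31.9 to 115 CPM. The values describe these libraries, which share their groups, and the genes were ranked by r.

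As a class, the other genes with a let-7 match had median log2 fold changes slightly below that of genes without one. The median log2 fold change was -0.06 in the 11317 tested genes without a match of 7 bases, -0.09 in 1152 with 1 match, -0.20 in 137 with 2 and -0.08 in 22 with at least 3, with the 10 genes left out of each. Among these 22, none was higher by the rule (1, Ago2, had an unadjusted p under 0.05 in edgeR's test and a smaller fold), and 3 were lower, the ubiquitin ligase Trim6, Fignl2 and Slc22a23, named here after their values were seen. Their 4 counterparts among the axis genes, Lin28b, Trim71, Hmga2 and Igf2bp1, had log2 fold changes of 7.13, 3.34, 1.29 and 1.08, and the first 3 of them passed the rule. These 4 were chosen with earlier results known, and Lin28b and Trim71 passed the filter on low counts through the KPYYF libraries alone. Their contrast with the 22 genes is therefore no independent result and was not tested. Genes with at least 1 match and outside the 10 numbered 1311, of which 4.73% were higher and 10.1% lower by the rule, close to the 4.28% and 9.33% of genes without a match. The classes were not matched for 3′UTR length, whose median was 2363 bases with a match and 1057 bases without.

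**Figure D3:**
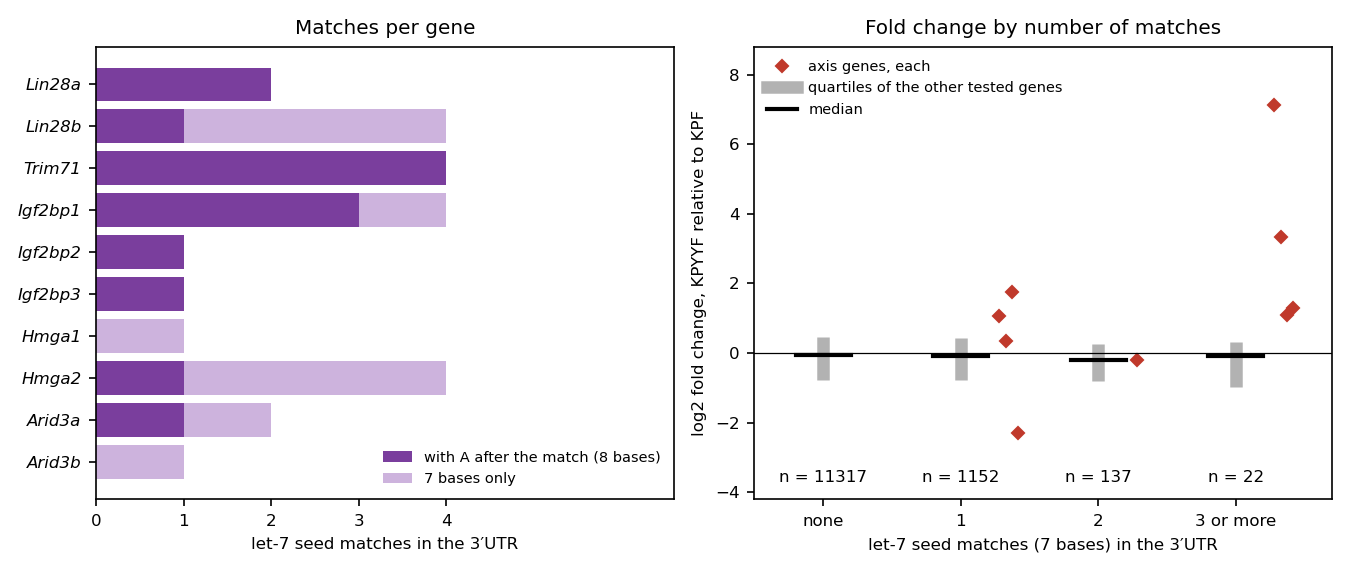
Left, number of let-7 seed matches in the longest 3′UTR of each of the 10 genes, with those followed by an A in dark purple. Right, log2 fold change of KPYYF relative to KPF by number of 7-base matches, as quartiles (grey) and median (black) of the other tested genes, with their number n, and the axis genes as red diamonds. The medians of the other genes lie between -0.20 and -0.06.

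The machinery that makes and decays let-7 gave little difference. Of 21 genes for its processing and decay, all tested, none passed the rule, 11 had a higher and 10 a lower mean, and the median log2 fold change was 0.07. At an unadjusted p under 0.05 in edgeR's test, 2 were higher (Ago2 and Khsrp) and 1 lower (Tut4) by less than 2-fold, against 16.1% of all genes tested. In 1 of the 21, Khsrp, all KPYYF libraries lay above all KPF libraries (77.66 to 100.7 against 48.55 to 63.42 CPM), against 3.92% of all genes tested. The ends of the list were Xpo5, which exports precursors from the nucleus, with 2.26, 21.1 and 9.43 CPM in KPYYF libraries against 1.02 to 8.95 CPM in KPF (log2 fold change 1.36, adjusted p = 0.496 by edgeR's test), and Tut4, the enzyme that LIN28A recruits to tail let-7 precursors with uridine, with 18.8, 43.2 and 13.6 CPM against 36.9 to 62.0 CPM (log2 fold change -0.91, adjusted p = 0.300 by edgeR's test). Of 5 let-7 host genes, 3 were found, Huwe1, Wdr82 and Mir99ahg, and none passed. Mir99ahg, which holds let-7c, had the largest log2 fold change of them, 0.92, with 101 CPM in KPYYF library 4449 and 8.42 and 4.06 CPM in the others, against 5.83 to 51.6 CPM in KPF, so that library 4449 carried it, and Huwe1 had the smallest, -0.02.

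Of 30 let-7 targets outside the 10 genes, 2 were higher and 3 lower by the rule, shares near the 4.2% and 9.2% of all genes tested, so the list as a whole did not stand out and the genes below are given as single values. None had an adjusted p under 0.05 in edgeR's test, and the median log2 fold change was -0.20. Myc, the growth transcription factor, was the clearest, at 87.7, 36.1 and 52.2 CPM in KPYYF libraries 4449, 4891 and 4938 against 8.61 to 25.4 CPM in KPF libraries. Its groups did not overlap, with a log2 fold change of 1.84 (SE 0.44, unadjusted p = 0.000986, adjusted p = 0.0631 by edgeR's test). The study itself reports Myc target genes as raised in these cells, and that relapsed lesions tend to show high nuclear Myc. Aurkb, a kinase of chromosome segregation, had 22.4, 7.87 and 7.89 CPM against 0 to 4.29 CPM (log2 fold change 3.08, adjusted p = 0.197 by edgeR's test), and passed the filter through the KPYYF libraries alone. Mycn, the relative of Myc in embryonic and neural cells, which passed the filter through the KPF libraries alone, was lower, with 1, 3 and 1 reads, or 0.119, 0.328 and 0.110 CPM, against 1.64 to 3.65 CPM (log2 fold change -3.75, adjusted p = 0.234 by edgeR's test). Also lower by the rule were Tgfbr1, a TGF-β receptor (log2 fold change -1.25), and Thbs1, a matrix glycoprotein (-1.18).

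Of 10 RNAs bound by IGF2BP proteins, 9 were tested, with a median log2 fold change of 0.15. By the rule 4 were higher, against 4.2% of all genes tested, and 1 was lower, against 9.2%. The list was chosen with earlier results of these data known, and the study itself reports Sox2 as raised in these cells. The counts therefore describe the list and cannot show an enrichment. Igf2, the fetal growth factor, had 24.3, 570 and 19.8 CPM in KPYYF libraries 4449, 4891 and 4938 against 0.584 to 37.0 CPM in KPF (log2 fold change 4.21, adjusted p = 0.199 by edgeR's test). H19, the noncoding RNA of the same imprinted locus, had 269, 2346 and 133 CPM against 8.17 to 201 CPM (log2 fold change 3.43, adjusted p = 0.169 by edgeR's test). Both were highest in library 4891, which also had the highest Igf2bp3, and both overlapped KPF libraries. Sox2, a pluripotency factor, had 0.119, 41.1 and 112 CPM against 0 to 5.24 CPM (log2 fold change 4.62, adjusted p = 0.161 by edgeR's test), and so was high in the libraries in which Trim71 and Hmga1 were high. Myc, described above, was the other higher gene, and Abcb1a, a drug efflux pump, was lower in all KPYYF libraries, with 15.3, 7.87 and 17.5 CPM against 19.4 to 52.3 CPM (log2 fold change -1.22, adjusted p = 0.204 by edgeR's test). Mapk4 had 33 reads, all in KPF libraries, and was not tested.

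Of 15 other fetal or germline RNA-binding genes, 6 were tested and none passed the rule, 9 were below the filter, and 3 of these, Nanos2, Dazl and L1td1, had no read in any library. Msi2, a relative of Msi1, was plainly expressed in all libraries, at 44.5 to 135 CPM. Nanos1, a translational repressor of germ cells, had 0.119, 8.20 and 10.9 CPM in KPYYF libraries against 0.0973 to 4.98 CPM in KPF (log2 fold change 1.40, adjusted p = 0.664 by edgeR's test). Msi1, a neural stem cell protein, had 1 read in KPYYF libraries and 113 in KPF libraries (0 to 6.15 CPM, adjusted p = 0.318 by edgeR's test). It passed the filter on low counts through the KPF libraries alone. Ddx4, the germ cell helicase, had 4 reads, all in KPF libraries, and Ybx2 had 2, both in a KPYYF library. Elavl3 and Elavl2, neuronal RNA-binding genes below the filter and named after their values were seen, had most of their reads in KPYYF libraries. Elavl3 had 11, 22 and 4 reads in KPYYF libraries 4449, 4891 and 4938 and 4 in all KPF libraries, and Elavl2 had 0, 90 and 1 against 3, so that its reads came almost all from library 4891. Among the paralogs of the 10 genes, 4 were tested and none passed, with Trim32 at the top (log2 fold change 0.47) and Trim2 at the bottom (-0.95), and Arid3c had no read.

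**Figure D4:**
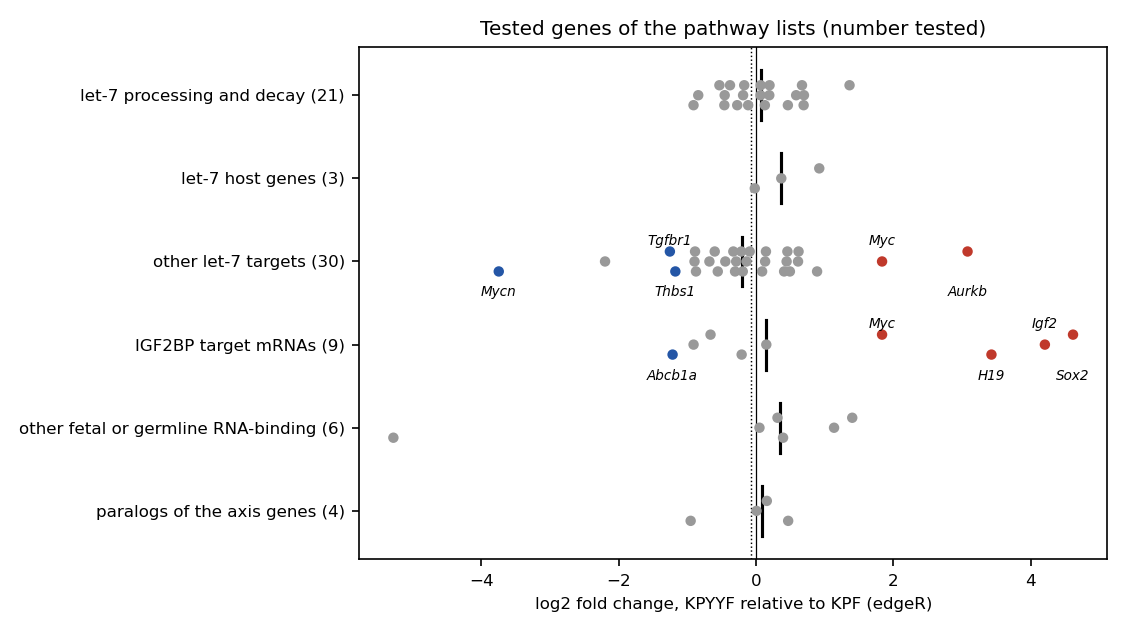
Log2 fold change of KPYYF relative to KPF (horizontal axis) for each tested gene of the lists, 1 row a list with the number tested in brackets. Vertical black bars are list medians, the dotted line is the median of all genes tested, and named points in red (higher) or blue (lower) had an unadjusted p under 0.05 and a fold above 2. List medians lie between -0.20 and 0.37.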

How the data were processed

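RNA of sorted cells was sequenced by the authors as 3′ end libraries (Lexogen QuantSeq Forward, per the labels). The deposited values are raw counts per Ensembl gene in 9 libraries, made with STAR, HTSeq and the mm10 build per the submitters' processing notes. The methods instead describe BeadChips. Versions, annotation and strand setting are not given in the sources used here. Reads on genes were 37.3 to 42.0% of each file, with 43.8 to 53.4% not uniquely aligned, and other summary lines were left out.

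Identifiers were matched to symbols with GENCODE M21. Genes summing to 100 or more reads (14105) were compared with edgeR 4.0.16 in R 4.3.3 (TMM, robust quasi-likelihood test, no covariates, Benjamini-Hochberg adjustment, threshold 0.05), two-sided. Standard errors (SE) were taken from the fold change and the F statistic. Log2 CPM used a prior count of 2. Exact tests used the difference of group means. Labels name mice but not cultures or litters, so p-values measure the spread between these libraries. DESeq2 1.42.0, limma 3.58.1, other scalings, filters and library sets were alternatives. The fit was tested on simulated counts.

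The 10 genes and all lists were chosen with earlier results of these data known. Genes are named when they are one of the 10, Yap1, a list gene that passes a rule, the largest rise or fall of a list, a list gene read in 1 group alone, or among the 3 genes most like Lin28b or Hmga2. Others, such as Ago2, Khsrp and Msi2, meet none of these criteria and were named with their values known. Figures were drawn with matplotlib 3.10.9. One item of the genotype shared by all mice is not reported here.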

Additional observations from a re-analysis of the deposited data

Results flagged for a closer look

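Among the 6 KPF libraries, 3 values lay far from the others by Dixon's test at the 95% level, of 10 genes examined, where chance flags about 1 in 20 groups. That rate holds for normal values and not for counts near 0, as in the 3 genes below. No excess of far values can therefore be read from it. Lin28a had 1.31 CPM in KPF library 4601 and at most 0.114 CPM in the others. Lin28b had 0.114 CPM in KPF library 4504s, which is 1 read, and 0 in the others. With the other 5 libraries at 0, any single read is far from them by construction, so this value says nothing more. Trim71 had 2.46 CPM in KPF library 4435 and at most 0.583 CPM in the others.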

How the results depend on the processing

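Adjusted p under 0.05 was reached by 1 of the tested axis genes, Lin28b, with DESeq2 and with filterByExpr, and by none under the other 17 alternatives. Over all genes, 1.96% of those with an adjusted p were higher with DESeq2, and 44 genes were higher with filterByExpr. The rule of p and fold passed 5 genes as higher and 1 as lower, against 4.2% and 9.2% of all genes tested. It passed 2 and 1 with KPF libraries 4504h and 4504s summed, against 4.22% and 9.05% of all genes tested. In libraries with at least 1000 Xist reads it passed 2 and 0, against 3.77% and 6.91%. Without KPF library 4504s and KPYYF library 4449 (chosen after seeing the data) it passed 3 and 0, against 4.43% and 9.09%. With each library left out it passed 1 to 5 and 0 to 1, against 542 to 635 and 1121 to 1464 of 14105 genes. It passed 2 as higher without KPF library 4504h or 4504s, 3 without KPF library 4601 or KPYYF library 4891, and Lin28b alone without KPYYF library 4938. None was lower without KPF library 4515, and without KPYYF library 4891 the lower gene was Igf2bp3. Igf2bp3 reversed to -0.35 on the log2 scale with limma-voom and ran from -2.83 to 0.89 with each library left out. Arid3a reversed to 0.0078 in libraries with at least 1000 Xist reads and ran from -0.35 to 0.12 with each library left out. Lin28b, Trim71, Igf2bp1, Igf2bp2, Hmga1, Hmga2 and Arid3b kept their direction under all 19 alternatives. Yap1 had -4.56 with limma-voom and from -5.79 to -4.31 with each library left out, and its adjusted p was over 0.05 with limma-voom and without KPYYF library 4891 (0.0771 and 0.0547).

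Over all genes, 43 were higher and 112 lower at an adjusted p under 0.05. These were 269 and 928 with DESeq2, 88 and 219 without a filter, 7 and 38 in libraries with at least 1000 Xist reads, 25 higher with the pair summed, 44 lower with limma-voom, and 6 to 75 and 13 to 194 with each library left out. Genes higher by the rule were 592, and 1204 without a filter, where more genes were tested. For other results the cause was not tested. List medians moved to -0.0089 (host genes), -0.0315 (let-7 targets) and -0.76 (paralogs) with limma-voom, to -0.0512 (let-7 targets) in libraries with at least 1000 Xist reads, and with each library left out ran from 0.0575 to 0.62 (host genes) and from -0.32 to 0.0252 (let-7 targets). The median of all genes was -0.07, and -0.31 without a filter.

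No paired analysis was possible because replicate numbers only name samples in accession order. Depth limits Lin28a, Lin28b, Trim71 and Mycn, with few reads in at least 1 group.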
